A study of Mus musculus with 4 samples.

Results

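The miR-148 and miR-152 family is a set of small RNAs made from separate genes, and its members were examined here as cell-free miRNAs (cf-miRNAs) in the plasma of aged and young mice. The 3 members are miR-148a-3p (MIMAT0000516), miR-148b-3p (MIMAT0000580) and miR-152-3p (MIMAT0000162), 3 of 1265 probes on the array. They were chosen by their identifiers and not by their signals, though with earlier results of these data known. A miRNA guides the silencing complex to messenger RNAs through its seed, the stretch of bases near its 5′ end that pairs with the target, so miRNAs with the same seed are expected to share many targets. As background, miR-148a is an abundant miRNA of the liver, where it represses the low-density lipoprotein receptor, and in mouse B cells it restrains the death of self-reactive cells. The DNA methyltransferase DNMT1 is a known target of the family. With 2 mice of each age, neither of the 2 members that could be tested was called as different between aged and young plasma. No value was listed for miR-152-3p in 1 aged mouse.

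The mature sequences are shown because they differ at few bases, which bears on how far probes can tell the members apart. They are given 5′ to 3′ from RefSeq (GRCm38.p6), where all 3 names matched, with the seed (bases 2 to 8) in capitals.
miR-148a-3p: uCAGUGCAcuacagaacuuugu
miR-148b-3p: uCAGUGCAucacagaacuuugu
miR-152-3p: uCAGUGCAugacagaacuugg
Of the 1738 mature mouse miRNA entries in that table, these 3 were the ones with CAGUGCA at bases 2 to 8. Counted from 1 at the 5′ end and written with the base of miR-148a-3p first, miR-148b-3p differs by C9U and U10C, so 20 of 22 bases are the same. The sequence of miR-152-3p differs from that of miR-148a-3p by C9U, U10G and U20G over the 21 bases they share in length. Between miR-148b-3p and miR-152-3p, in that order, the differences are C10G and U20G. How far the probes of the chip separate these sequences was not tested.

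The genes lie on different chromosomes of GRCm38.p6. The mature miR-148a-3p is at chr6:51269829-51269850 on the minus strand, within the span of the predicted gene Gm38821. The mature miR-148b-3p is at chr15:103285185-103285206 on the plus strand, within the span of Copz1, which encodes a coat protein of Golgi vesicles. The mature miR-152-3p is at chr11:96850439-96850459 on the plus strand, within the span of Copz2, a paralogue of Copz1. The annotation used here gives gene spans without exons.

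Plasma came from 2 aged (23 to 24 months) and 2 young (6 to 7 weeks) male C57BL6/J mice with no treatment named. The RNA of each mouse was labelled with the dye Hy5 and put on 1 chip of miRNA probes. Some of the probes carry more than 1 miRBase identifier. The signal intensities are linear, were scaled by the authors to a median of 25 over the values listed for an array, and are blank where none is listed. The arrays listed 563 and 578 miRNAs for aged mice 1 and 2, against 620 and 439 for young mice 1 and 2, and 362 miRNAs had a value on all 4. The scaling left the arrays unequal: the median signal of those 362 was 62.1 and 56.0 in the aged mice and 67.9 and 35.2 in the young mice. Each member is therefore given on the deposited scale and with these medians set equal. A signal depends on the probe as well as on the amount of RNA, so the order of the members by signal is not an order of abundance, and the release, the clearance and the number of source cells of a miRNA cannot be told apart in plasma. Of 22 miRNAs of other cells or opposite arms listed for a check, 4 could be paired with an identifier, all with a value on every array. They were miR-223-3p of myeloid cells, at 429.9 and 499.2 in aged mice against 269.1 and 141.4 in young mice, and 3 muscle miRNAs, which ranged from 56.8 to 177.2 in aged mice and from 155.9 to 525.0 in young mice. All 4 could be paired because the study prints them among its most extreme ratios on these arrays, so their age differences were selected. For the muscle miRNAs the study has other evidence. It reports lower levels in aged plasma by qRT-PCR as well, and the same in RNA of plasma exosomes. Those measurements were not examined here. The ages did not overlap for any of the 4, as for 29.8% of the 362 miRNAs. None was called, with adjusted p-values from limma of 0.80 for miR-223-3p and 0.44 to 0.80 for the muscle miRNAs. Their part in the results was not tested. None of the erythrocyte, hepatocyte or lymphocyte miRNAs on these lists and no opposite arm of the family could be paired. The paired miR-486-3p, the other arm of the listed red-cell miRNA miR-486a-5p, was at 836.1 and 437.1 in aged mice against 484.5 and 121.3 in young mice, and the ages overlapped. It was added after its values were seen, and it too has a name here because the study prints it among those ratios. Its log2 difference was 1.32 (identifier MIMAT0017206, adjusted p = 0.80 from limma), and its part in the results was not tested either.

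The signal of miR-148a-3p was 42.0 in aged mouse 1 and 23.2 in aged mouse 2, against 51.9 in young mouse 1 and 27.8 in young mouse 2. The ages overlapped on this scale, since aged mouse 1 lay above young mouse 2. The means were 32.6 ± 13.3 in aged mice and 39.9 ± 17.0 in young mice (SD, n = 2 each). The log2 difference, aged minus young, was -0.28 (standard error 0.60, 95% interval -1.46 to 0.89), with an adjusted p of 0.88 from limma, which pools the spread over all miRNAs. In this fit every miRNA received the same standard error, so the interval does not rest on the spread of miR-148a-3p itself. The variance test named in the study's methods uses each miRNA's own spread. It gave an adjusted p of 0.86 for miR-148a-3p and 0.86 for miR-148b-3p. The interval corresponds to a fold between 0.36 and 1.86. After the medians of the shared miRNAs were set equal, miR-148a-3p was at 36.3 and 22.3 in aged mice, against 41.0 and 42.4 in young mice. On that scale the young mice were close to each other and both aged mice lay below them, at a log2 difference of -0.55 with a standard error of 0.42 (95% interval -1.38 to 0.27) and an adjusted p of 0.56 in limma. Such a position, both aged mice below both young mice, was found for 9.94% of the 362 miRNAs on the deposited scale and for 22.7% with equal medians, where 44.5% were separate in either direction. On that scale miR-148a-3p was the 1 of the 2 members listed on all arrays whose groups were separate. Among the 362 shared miRNAs of each array, miR-148a-3p stood at percentiles 41.6 and 19.3 in aged mice and 44.1 and 43.5 in young mice, so its rank in aged mouse 2 was the one that stood apart. Its signal in that mouse was low, at 2.44 times the lowest listed value of the array. It was 6.00 times that value in aged mouse 1, and 7.41 and 3.43 times in young mice 1 and 2. The direction rested on single mice: the log2 difference was 0.14 without aged mouse 2 and 0.17 without young mouse 1, but -0.71 without aged mouse 1 and -0.73 without young mouse 2.

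**Figure D1:**
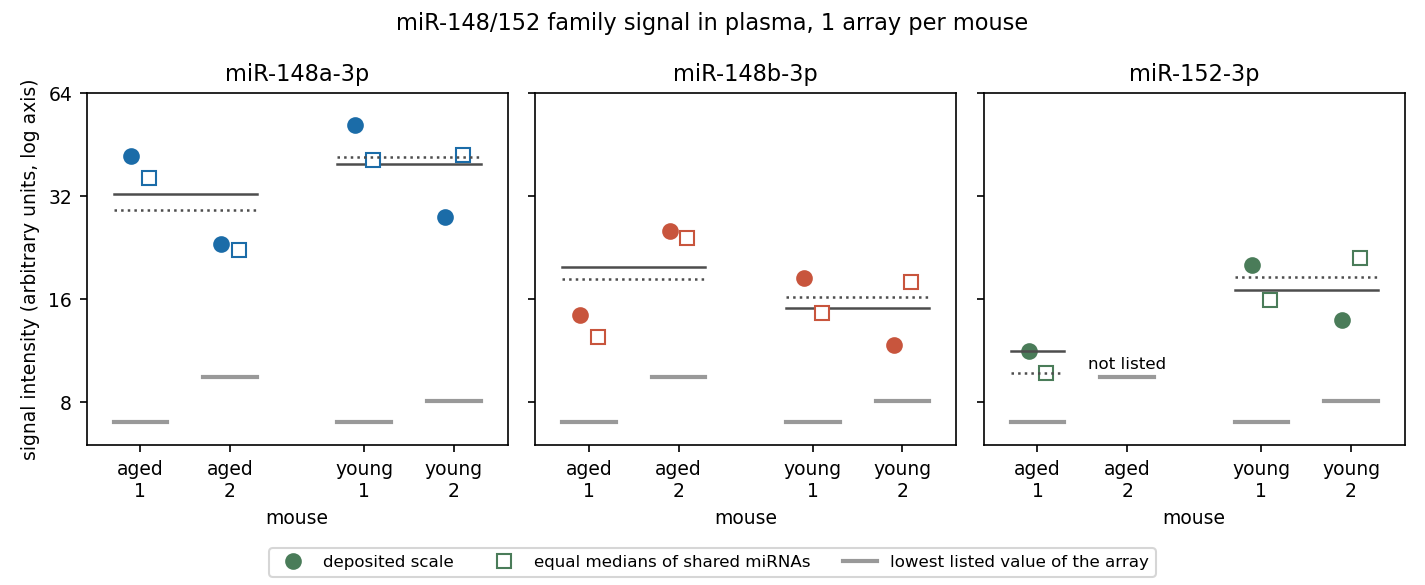
Signal intensity (log axis, arbitrary units) of the 3 family members in each mouse, with 1 array per mouse. Filled circles are deposited values, open squares are values with the shared medians set equal, solid and dotted lines are the group means of each, and grey bars are the lowest listed value of the array; on the deposited scale miR-148a-3p and miR-148b-3p overlap between the ages, and miR-152-3p is not listed in aged mouse 2.

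The signal of miR-148b-3p was 14.4 in aged mouse 1 and 25.3 in aged mouse 2, against 18.5 in young mouse 1 and 11.8 in young mouse 2. The aged mice held the highest value and a value between those of the young mice, so the ages overlapped. The means were 19.9 ± 7.71 in aged mice and 15.2 ± 4.74 in young mice (SD, n = 2 each), a log2 difference of 0.37 with a standard error of 0.60 (95% interval -0.81 to 1.55), for which limma gave an adjusted p of 0.88. The interval corresponds to a fold between 0.57 and 2.92. These are low signals, at 2.06 and 2.66 times the lowest listed value of the array in aged mice and 2.64 and 1.46 times in young mice. With equal medians the values were 12.4 and 24.3 in aged mice and 14.6 and 18.0 in young mice, and both young mice lay between the aged mice. This gave a log2 difference of 0.099 with a standard error of 0.42 and, in limma, an adjusted p of 0.97. Without aged mouse 2 the log2 difference on the deposited scale was -0.037, and without aged mouse 1 it was 0.78.

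The signal of miR-152-3p was 11.3 in aged mouse 1 and was not listed in aged mouse 2, against 20.2 in young mouse 1 and 13.9 in young mouse 2. The 1 aged value was below both young values, and the share of all miRNAs placed this way was not counted. That aged value was 1.61 times the lowest listed value of its array. The values of young mice 1 and 2 were 2.89 and 1.72 times theirs. The log2 difference over the 3 listed arrays was -0.57, and -0.91 with equal medians, where the values were 9.76 in aged mouse 1 and 15.97 and 21.2 in young mice. With 1 aged value these differences have no test, and the log2 values of the young mice had an SD of 0.38. The lowest listed value of aged mouse 2 was 9.5, but the sources used here do not give the rule for listing, so this is no limit on the signal. With the blank set to that value and 578 miRNAs in the fit, limma gave a log2 difference of -0.69 with a standard error of 0.58 and an adjusted p of 0.92. Of the 377 miRNAs listed on the other 3 arrays, 15 were blank in aged mouse 2, or 3.98%. These 15 include miR-152-3p itself, and also brighter miRNAs. Their signals were 7.70 to 26.4 in aged mouse 1, with a median of 11.3, and 7.30 to 52.4 in young mouse 1.

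The ratio of a pair of members on the same array does not depend on a scaling factor applied to the whole array. It shows whether the signals, and not necessarily the RNAs, changed unequally. How background was removed is not known here, and how far the probes separate the members was not tested. The signal of miR-148a-3p was 2.92 times that of miR-148b-3p in aged mouse 1 and 0.92 times in aged mouse 2, against 2.81 times in young mouse 1 and 2.36 times in young mouse 2. Aged mouse 1 was thus near the young mice, and aged mouse 2 was the array with a ratio below 1. The log2 ratios averaged 0.65 lower in aged mice (a difference of -0.65), with a two-sided p of 1.0 from an exact permutation test, which cannot go below 0.333 for 2 mice against 2. Without aged mouse 2 the difference was 0.18, and without aged mouse 1 it was -1.49. With a pseudocount of 16 it was -0.39, and with quantile normalization, which does not scale an array by a single factor, it was -0.75. The signal of miR-148a-3p was 3.72 times that of miR-152-3p in aged mouse 1, against 2.57 and 2.00 times in young mice 1 and 2. For miR-148b-3p over miR-152-3p the ratio was 1.27 in aged mouse 1, against 0.92 and 0.85 in young mice. Both ratios were higher in the 1 aged mouse with a value than in either young mouse, with log2 differences of 0.71 and 0.53 and no test, or 0.36 and 0.24 with a pseudocount of 16. They share the same low miR-152-3p signal of 11.3 in aged mouse 1, so they are not separate observations. How often such a placing occurs among other pairs was not counted.

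**Figure D2:**
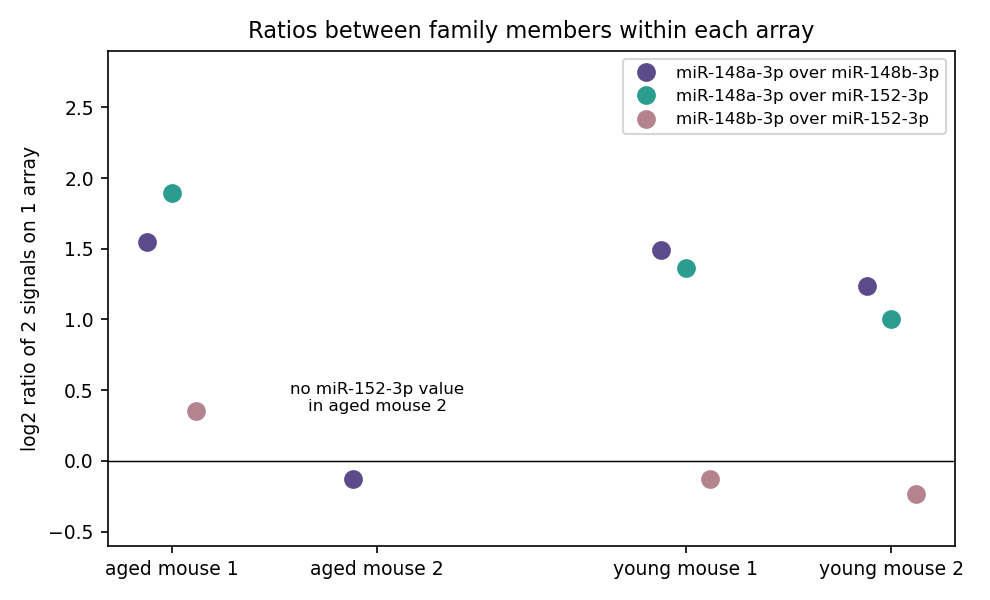
Log2 ratio of the signals of each pair of members on the same array, by mouse. The ratio of miR-148a-3p over miR-148b-3p is 1.54 in aged mouse 1, -0.13 in aged mouse 2, and 1.49 and 1.24 in young mice; ratios with miR-152-3p have no point in aged mouse 2.

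The mice of each age carry the numbers 1 and 2, which are also those of the study's duplicate experiments, and the members were also set side by side by number. Between the mice numbered 1, all 3 members had lower signals in the aged mouse, with log2 differences of -0.31 for miR-148a-3p, -0.36 for miR-148b-3p and -0.84 for miR-152-3p. The median of the 362 shared miRNAs was -0.12 there, and 37.8%, 35.4% and 18.2% of them had a lower difference than these members in turn. Between the mice numbered 2, the log2 difference was -0.26 for miR-148a-3p and 1.10 for miR-148b-3p, beside a median of 0.75 over all miRNAs. In that pair 8.29% of the shared miRNAs had a lower difference than miR-148a-3p, and 74.3% a lower one than miR-148b-3p. The differences of miR-148a-3p and miR-148b-3p were thus close between the mice numbered 1 and far apart between those numbered 2, and that of miR-152-3p was below both between the mice numbered 1.

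**Figure D3:**
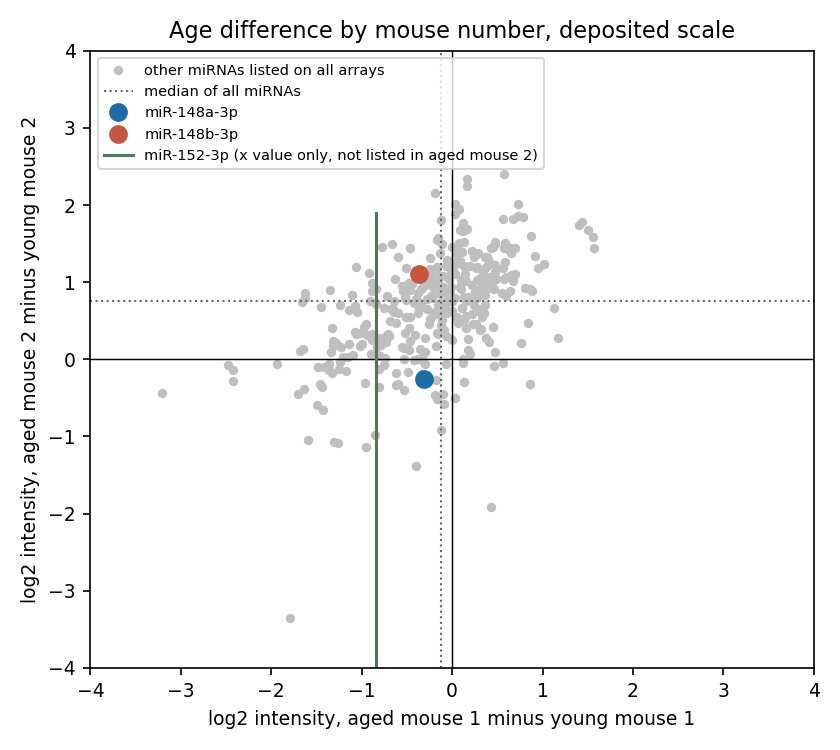
Log2 intensity of the aged minus the young mouse, deposited scale, for the mice numbered 1 (x axis) and 2 (y axis), with a grey point for each of the other miRNAs listed on all arrays and dotted lines at the medians of -0.12 and 0.75. The points of miR-148a-3p and miR-148b-3p are near each other along the x axis and apart along the y axis, and the line of miR-152-3p gives its x value only.

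Over all miRNAs, limma called 1 of 362 at an adjusted p of 0.05, or 0.276%, and 22 (6.08%) had an unadjusted p under 0.05. Of the family, 2 of 3 members had a value on all 4 arrays, and 0 of these 2 passed either threshold, with unadjusted p-values of 0.64 for miR-148a-3p and 0.54 for miR-148b-3p. The groups did not overlap for 29.8% of the miRNAs and for 0 of the 2 members. The fitted difference was lower in aged plasma for 1 member and higher for the other, while 246 of all miRNAs were higher and 116 lower, with a median log2 difference of 0.31. Counted from the lowest difference, miR-148a-3p ranked 70th and miR-148b-3p 207th of 362. With equal medians 4.42% of the 362 were called (16 miRNAs), and again neither member was.

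**Figure D4:**
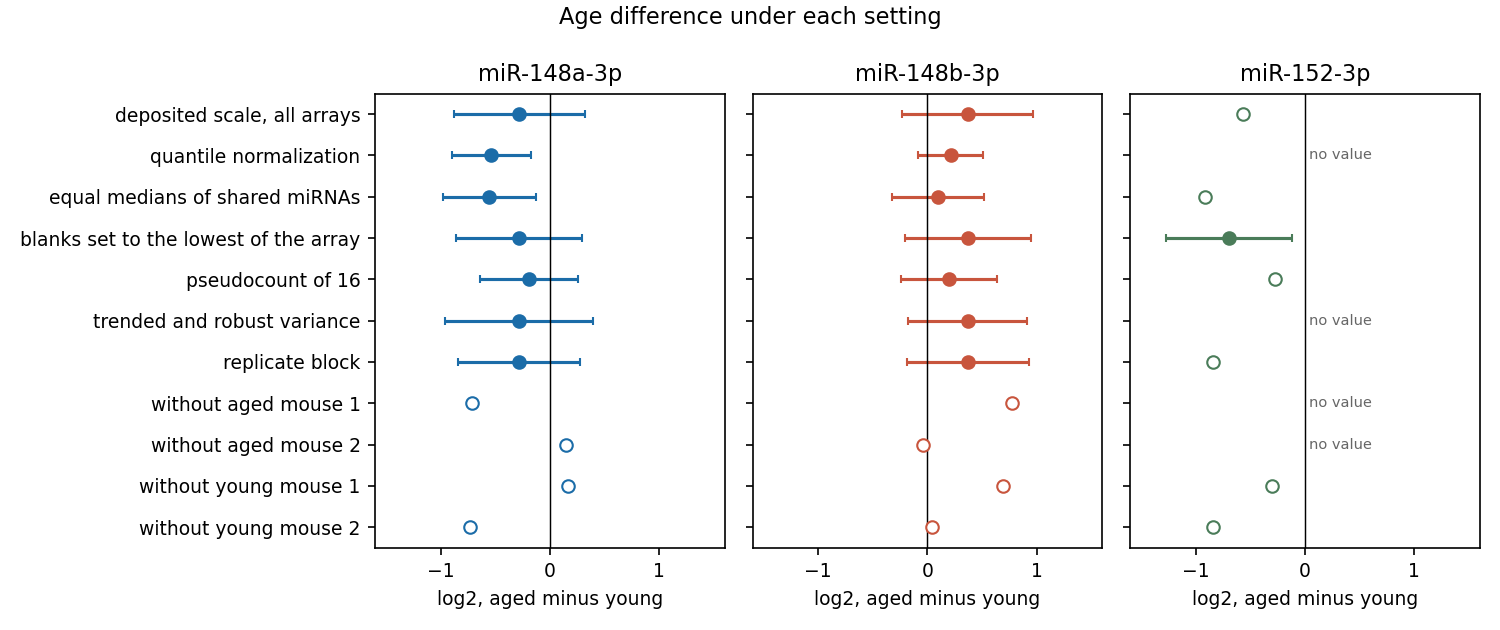
Log2 difference, aged minus young, of each member under each setting, with bars of 1 standard error where limma gave one and open circles for values with no test read from them. For miR-148a-3p the values lie between -0.73 and 0.17, for miR-148b-3p between -0.037 and 0.78, and for miR-152-3p between -0.91 and -0.27.

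The miRNAs with the most similar pattern over the 4 mice were found by the root mean square distance between log2 signals. Each miRNA was centred on its own mean, and a scaling factor of a whole array cancels in this measure. The files do not pair the nearest ones with names. Closest to miR-148a-3p was MIMAT0003499, at a distance of 0.047, with signals of 310.8 and 163.2 in aged mice and 350.3 and 197.3 in young mice. Closest to miR-148b-3p was MIMAT0000542, at a distance of 0.061, with 10.7 and 17.7 in aged mice and 14.5 and 9.0 in young mice. The distance between miR-148a-3p and miR-148b-3p was 0.68. Of the 362 shared miRNAs, 293 were nearer to miR-148a-3p, and 310 nearer to miR-148b-3p, than the other family member was. How close the nearest profile of other miRNAs lies was not counted.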

How the data were processed

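Plasma cell-free RNA of 2 aged and 2 young mice was measured on 3D-Gene mouse miRNA chips (version 19). The intensity values deposited by the authors are linear signals scaled to a median of 25 on each array. How background was removed, how the arrays were scaled and which miRNAs were listed was not given in the sources used here. Another table has 8 columns of intensities by sample; its headings do not tell which mouse they belong to, and they were left out.

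Log2 intensities of the 362 miRNAs listed on all 4 arrays were compared with lmFit and eBayes of limma 3.58.1 in R 4.3.3, without a block, and p-values were adjusted by Benjamini-Hochberg at a threshold of 0.05. Per the labels, each array is a separate mouse. The fit was first tested on simulated data. Those had 1 common spread, independent arrays and no shifts between arrays, unlike the arrays here. The number of arrays limits the precision. Intervals are 95%. The exact permutation test, percentiles and figures used Python 3.11.15, scipy 1.17.1 and matplotlib 3.10.9.

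The members were found by their miRBase identifiers. A further 24 identifiers were named by matching the published signals of the study within 0.05. Members and lists were chosen with earlier results of these data known. The text names the members, their opposite arms where paired, and the 3 miRNAs with the nearest profile to each member, of which it prints the first. Across miRNAs, the deviations of same-numbered mice from the mean of their age correlated at 0.34. The alternatives tried were equal medians, quantile normalization, a low-value filter, blanks set to the lowest value, a pseudocount of 16, a trended and robust variance, a replicate block, the variance test named in the study's methods, and each array left out.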

Additional observations from a re-analysis of the deposited data

How the results depend on the processing

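No alternative run with all 4 mice brought miR-148a-3p or miR-148b-3p past the threshold, and their direction held under each of these that kept them. Fits with 1 mouse left out were run on the deposited scale only. The log2 difference then ran from -0.73 to 0.17 for miR-148a-3p, from -0.037 to 0.78 for miR-148b-3p and from -0.84 to -0.30 for miR-152-3p. The within-array difference of miR-148a-3p over miR-148b-3p ran from -1.49 to 0.18. These fits leave 1 mouse in an age, whose spread is assumed to be that of the other age, so only sizes are read. The count of 1 miRNA called became 0 with quantile normalization, with a trended and robust variance and with the methods' test, 16 with equal medians and 2 with blanks set to the lowest value, and ran from 0 to 50 with 1 mouse left out. The unadjusted counts under 0.05 were 53, 15 and 7 for the first 3 of these, and 22 in the original fit. The cause was not tested. With the replicate block the log2 differences were -0.28 for miR-148a-3p (adjusted p = 0.84 from limma) and 0.37 for miR-148b-3p (adjusted p = 0.84), the block changed no call, and 1 miRNA was called. The numbers are also those of the duplicate array experiments, but the sources used here do not say that chips with the same number were processed together. The filter on low values removed both members. For miR-152-3p, quantile normalization, the filter, the variance model and the methods' test gave no value.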

Other observations

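The letters of the family seed, CAGUGCA, occur in 17 mature mouse miRNAs of the RefSeq table. In 3 of them, the family, they lie at bases 2 to 8, and in 7 they start at base 1, so that the seed of those miRNAs is shifted by 1 base. The 7 include miR-130a-3p, miR-130b-3p, miR-301a-3p and miR-721, and of all 7 only miR-721 was paired with an identifier of the array. It was singled out after its values were seen.
miR-721: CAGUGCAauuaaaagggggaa
Its signal was 20.8 and 20.2 in aged mice 1 and 2, against 10.8 and 8.9 in young mice 1 and 2, and the ages did not overlap, as for 29.8% of all 362 miRNAs (both aged mice above both young mice for 19.9%). It was not called, at a log2 difference of 1.06 (identifier MIMAT0003515, adjusted p = 0.84 from limma), and it carries a name here because the study lists it among its most extreme ratios on these arrays, so its separation was selected.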
